A study of Mus musculus with 12 samples.

Results

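The histone genes described here are the 87 genes, of 54446 in the table, whose symbols begin with Hist1h to Hist4h or with H1f, H2af or H3f. They were chosen by symbol alone, and 4 of the 91 matching symbols were left out because they end in a pseudogene suffix (Hist3h2bb-ps, H3f3a-ps1, H3f3a-ps2 and H2af-ps). The symbols divide them into 69 replication-dependent genes (6 of the H1 family, 20 of H2A, 18 of H2B, 12 of H3 and 13 of H4) and 18 replacement-type genes (4 of H1, 10 of H2A and 4 of H3). The 18 include H3f3aos, annotated as antisense and lying opposite H3f3a, and H2afy3, annotated as a processed pseudogene. Both stay in the counts below, and neither reached the level needed for testing. All RNA came from E14, a mouse embryonic stem cell line. The 4 groups of 3 libraries each were cells sorted for a SOX17 reporter (SOX17+), for both a SOX17 and a T reporter (SOX17+/T+) or for a T reporter alone (T+) after differentiation, and undifferentiated cells (mESC). SOX17 marks endoderm and T (Brachyury) marks the primitive streak and early mesoderm. Irradiated embryonic fibroblasts served as feeders for the mESC, in medium with LIF and serum. No allele other than the reporters is named, and the sources used here do not give the length or medium of the differentiation.

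Histone proteins package DNA: H2A, H2B, H3 and H4 form the nucleosome core and H1 binds the linker between cores. Replication-dependent genes lie in clusters and are transcribed mainly in S phase, and most of their mRNAs end after a conserved stem-loop, bound by SLBP, in place of a poly(A) tail. Replacement-type genes, also called replacement variants, lie alone, are read throughout the cell cycle and give ordinary polyadenylated mRNAs. RNA selected by its poly(A) tail therefore reports the 2 classes differently, and a value for a cluster gene in such RNA is not a measure of all of its mRNA.

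The deposited values are TPM (transcript abundance per length and library total), which sum to the same total in every library. The number of reads behind a value is unknown, and a difference is a difference in share of the RNA sequenced. The labels were checked against marker genes, of which 7 pluripotency genes summed to 18.1 to 23.9 TPM in SOX17+, 48.4 to 56.3 in SOX17+/T+, 119 to 146 in T+ and 5214.5 to 5364 TPM in mESC. In SOX17+ against T+, 5 of 6 endoderm markers were higher and 1 lower (Cxcr4, at 37.2 TPM in SOX17+ and 65.1 TPM in T+ on average), and 5 of 6 streak and mesoderm markers were lower and 1 higher (Eomes, at 10.9 TPM in SOX17+ and 5.43 TPM in T+). Markers of the feeder fibroblasts (10 genes, none at 0 in mESC) summed to 62.9 to 71.2, 54.7 to 65.7 and 73.8 to 87.4 TPM in SOX17+, SOX17+/T+ and T+, and to 3767 to 4641 TPM in mESC. Primitive erythroid markers (6 genes, 3 of them at 0 in all mESC libraries) summed to 82.3 to 214 TPM in SOX17+, 10.1 to 17.5 in SOX17+/T+, 3.98 to 4.99 in T+ and 1.42 to 1.62 TPM in mESC. Mitochondrially encoded genes held 5.71% to 6.18%, 6.14% to 6.93% and 6.34% to 6.82% of the TPM in SOX17+, SOX17+/T+ and T+, and 4.01% to 4.34% in mESC. The part of these in the differences between groups given here was not tested. Nothing in the labels ties the 3 replicates of a group to separate cultures, and the p-values then cover only replicate spread, which may be technical.

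The feature that sets the 2 classes apart at the RNA level can be read from the transcripts. All 87 gene identifiers, with their version, were found in the GENCODE M21 transcript set. The 16-base histone stem-loop was found in the transcripts of 44 of the 69 replication-dependent genes and 1 of the 18 replacement-type genes, against 0.112% of all 55450 annotated genes. The polyadenylation signal AATAAA lay within the last 40 bases of a transcript in 15 replication-dependent and 9 replacement-type genes, and in 35.6% of all annotated genes. Both were found for 11 replication-dependent genes. Neither was found for 21, and both searches see only the transcript ends that are annotated. The stem-loops are shown for members whose values are described below, 5′ to 3′ on the transcript strand, with the stem-loop in capitals:
Hist1h2ap: aaaaaaaGGCTCTTTTCAGAGCCatc
Hist1h1c: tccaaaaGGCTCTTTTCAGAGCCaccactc
Hist3h2ba: acccaaaGGCTCTTTTCAGAGCCaccttcc
Hist1h2bk: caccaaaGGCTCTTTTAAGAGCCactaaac
Hist1h4i: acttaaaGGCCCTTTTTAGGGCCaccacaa
H2afx: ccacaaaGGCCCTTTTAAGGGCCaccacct

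H2afx is the replacement-type exception. Its stem-loop lies 822 bases before the annotated end of its single transcript, and its mRNA is known in both a stem-loop and a polyadenylated form. The transcripts of Hist1h1c and Hist3h2ba also run on past the stem-loop, by 840 and 169 bases, to an AATAAA. These and the signals of 2 replacement-type linker histone genes are shown with AATAAA in capitals:
Hist1h1c: ctAATAAAaagcgtttagttttcattca
Hist3h2ba: ttAATAAAtttggttcaattttggccaca
H1f0: aaAATAAAactggaaaggaaaaaa
H1fx: gcAATAAAcggttccaaccttga

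The replication-dependent genes did not move as a class. Against mESC, most tested H2B, H3 and H4 genes fell in all 3 sorted groups, while most of a set of abundant H2A genes rose modestly. Without H2A, the 49 replication-dependent genes summed to 60.9, 88.3 and 107 TPM in SOX17+, to 69.2, 73.8 and 70.0 TPM in SOX17+/T+, to 113, 88.5 and 149 TPM in T+, and to 259.6, 269 and 265 TPM in mESC. Every sorted library lay below every mESC library, and the means were 85.5 ± 23.4, 71.0 ± 2.43, 117 ± 30.3 and 264 ± 4.57 TPM (SD, n = 3). The 20 H2A genes summed to 1506 ± 87.1, 1650 ± 5.26 and 1967 ± 94.2 TPM in SOX17+, SOX17+/T+ and T+, and to 1276 ± 24.1 TPM in mESC (SD, n = 3). Here every sorted library lay above every mESC library. Because H2A genes hold most of the signal, the sum over all 69 genes followed H2A: 1591 ± 100.0, 1721 ± 6.05 and 2084 ± 95.8 TPM in SOX17+, SOX17+/T+ and T+, and 1540 ± 27.3 TPM in mESC (SD, n = 3), with SOX17+ overlapping mESC. In bulk RNA, fewer cells in a given state and less RNA per cell cannot be told apart.

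**Figure D1:**
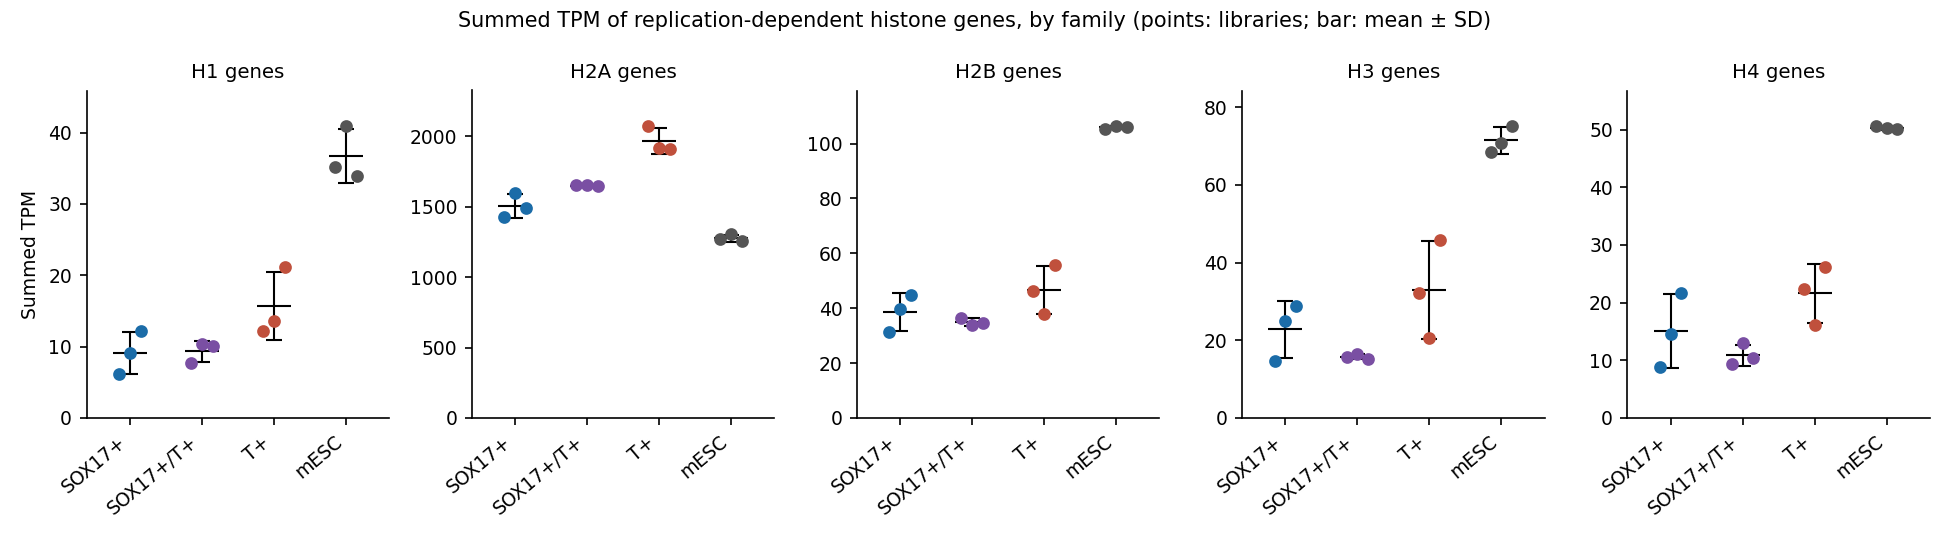
Summed TPM of the replication-dependent genes of each family (y axes, each starting at 0) in the 12 libraries (points), with the mean and SD of each group of 3 (bars). The H1, H2B, H3 and H4 sums were lower in each sorted group than in mESC (H4: 15.0, 10.8, 21.6 and 50.3 TPM on average), while the H2A sum was higher.

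A gene was tested where it reached 1 TPM in at least 3 of the 12 libraries, which 59 of 69 replication-dependent and 11 of 18 replacement-type genes did. Among all 16097 genes tested, differences from mESC were the rule, so the members' counts have to be read against that. In SOX17+ against mESC, 85.4% of all genes were called at an adjusted p under 0.05, 35.4% higher and 50.0% lower. In SOX17+/T+ against mESC the figures were 85.2%, 34.9% and 50.3%, and in T+ against mESC 84.0%, 34.5% and 49.5%. The 3 comparisons share the mESC libraries and are given side by side for that reason. Of the 42 tested replication-dependent genes outside H2A, 34 fell and 1 rose in SOX17+, 37 fell and 1 rose in SOX17+/T+, and 34 fell and 1 rose in T+. Their median difference in log2(TPM + 1) from mESC was -1.10, -1.22 and -0.81 (in SOX17+, SOX17+/T+ and T+), against -0.18, -0.19 and -0.17 for all genes tested. The pseudocount of 1 TPM understates the change of genes at a few TPM, which most of these are. The filter also admits genes that reached 1 TPM only in the mESC libraries, and such a gene could only fall here. Hist1h2be is one, at 0.380 to 0.947 TPM in the sorted libraries and 1.65 to 2.08 TPM in mESC. The counts of falls and the medians therefore follow in part from the filter, as do the shares of all genes.

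H3 and H4 genes, which encode the proteins at the centre of the nucleosome core, mostly fell. Of 12 tested H3 genes, 11 fell in SOX17+, 12 in SOX17+/T+ and 11 in T+, and of 10 tested H4 genes 9, 9 and 7 fell. Among all genes tested, 49.5% to 50.3% were called lower and 34.5% to 35.4% higher. No H3 or H4 gene rose in these limma fits, with 0 higher also at an unadjusted p under 0.05. Hist1h4i (chr13:22040636-22041362, minus strand) was at 1.16, 1.16 and 2.36 TPM in SOX17+, 1.61, 1.46 and 1.37 TPM in SOX17+/T+, 1.57, 2.26 and 2.20 TPM in T+, and 13.8, 13.1 and 12.5 TPM in mESC. All 9 sorted libraries lay far below mESC, and the differences were -2.50, -2.51 and -2.24 (SE 0.15 each, log2 scale, adjusted p = 2.87e-09, 2.78e-09 and 9.33e-09). Hist1h3g was at 1.37, 1.89 and 3.03 TPM in SOX17+, 0.896, 1.27 and 1.49 TPM in SOX17+/T+, 2.55, 1.44 and 2.50 TPM in T+, and 10.1, 11.9 and 12.5 TPM in mESC. It fell by 2.04, 2.50 and 2.00 on the log2 scale (SE 0.19 each). Hist1h3e was the H3 gene not called in SOX17+ or T+, with means of 4.24 TPM in SOX17+, 2.14 TPM in SOX17+/T+ and 5.90 TPM in T+, and 4.30 TPM in mESC. It was called lower in SOX17+/T+, a call that was lost when any of 5 single libraries (SOX17+/T+ 1 or 2, or any mESC library) was left out, with adjusted p between 0.0569 and 0.07, and also with median-of-ratios scaling (0.0573) and quantile normalization (0.123).

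Most H2B genes fell, 12 of 16 in SOX17+, 13 in SOX17+/T+ and 13 in T+, beside 49.5% to 50.3% of all genes tested. The most abundant H2B gene, Hist1h2bc (chr13:23684199-23692908, plus strand), was at 4.89, 5.05 and 6.19 TPM in SOX17+, 5.91, 5.77 and 5.25 TPM in SOX17+/T+, 6.88, 7.24 and 8.52 TPM in T+, and 32.8, 35.9 and 35.8 TPM in mESC. That is a ratio of mean TPM of 0.154, 0.162 and 0.217 to mESC, with no overlap between sorted and mESC libraries. Hist1h2bj was at 1.30, 1.32 and 2.19 TPM in SOX17+, 0.597, 1.04 and 1.66 TPM in SOX17+/T+, 2.01, 1.80 and 2.62 TPM in T+, and 11.2, 9.91 and 10.7 TPM in mESC. The exception was Hist3h2ba (chr11:58948920-58949533, plus strand), the H2B gene of the small chromosome 11 cluster. It was at 5.39, 6.81 and 4.71 TPM in SOX17+, 10.2, 7.88 and 8.17 TPM in SOX17+/T+, 7.91, 9.18 and 9.63 TPM in T+, and 3.63, 2.85 and 2.29 TPM in mESC. Every sorted library lay above every mESC library, and it rose by 0.76, 1.32 and 1.35 on the log2 scale (SE 0.14 each, adjusted p = 0.000241, 1.35e-06 and 1.12e-06).

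Its neighbour Hist3h2a, the H2A gene of that cluster, was at 2.99, 2.83 and 3.84 TPM in SOX17+, 4.79, 6.74 and 8.39 TPM in SOX17+/T+, 7.60, 9.58 and 13.7 TPM in T+, and 4.55, 4.46 and 3.53 TPM in mESC. It rose in T+ (1.09, SE 0.20, adjusted p = 0.000335) and in SOX17+/T+ (0.54, adjusted p = 0.028), and it was not called in SOX17+ (-0.30, adjusted p = 0.191). The call in SOX17+/T+ was lost without SOX17+/T+ 2, SOX17+/T+ 3 or mESC 3, with adjusted p between 0.0686 and 0.115, and with no filter on low values (0.0577). Both chromosome 11 genes have an annotated transcript that runs past the stem-loop to an AATAAA. Over all tested members outside H2A, the 9 genes with an AATAAA near the annotated end gave 7 falls and 1 rise in each sorted group, with medians of -0.97, -1.10 and -0.79. The 33 without one gave 27, 30 and 27 falls, with medians of -1.11, -1.22 and -0.84.

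Linker histone genes of the cluster were few and low. Of 4 tested, 2 fell in SOX17+, 3 in SOX17+/T+ and 3 in T+, too few to set apart from the 49.5% to 50.3% of all genes called lower. Hist1h1c (chr13:23738808-23740367, plus strand), a somatic H1 gene, was at 3.55, 4.32 and 5.26 TPM in SOX17+, 5.36, 7.41 and 8.58 TPM in SOX17+/T+, 7.98, 10.3 and 14.0 TPM in T+, and 25.2, 30.7 and 24.8 TPM in mESC. The groups did not overlap with mESC, and the differences were -2.38, -1.80 and -1.27 (SE 0.20 each, adjusted p = 3.05e-07, 4.21e-06 and 8.51e-05). It also fell in SOX17+ against T+, by 1.11 (adjusted p = 0.000596).

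**Figure D2:**
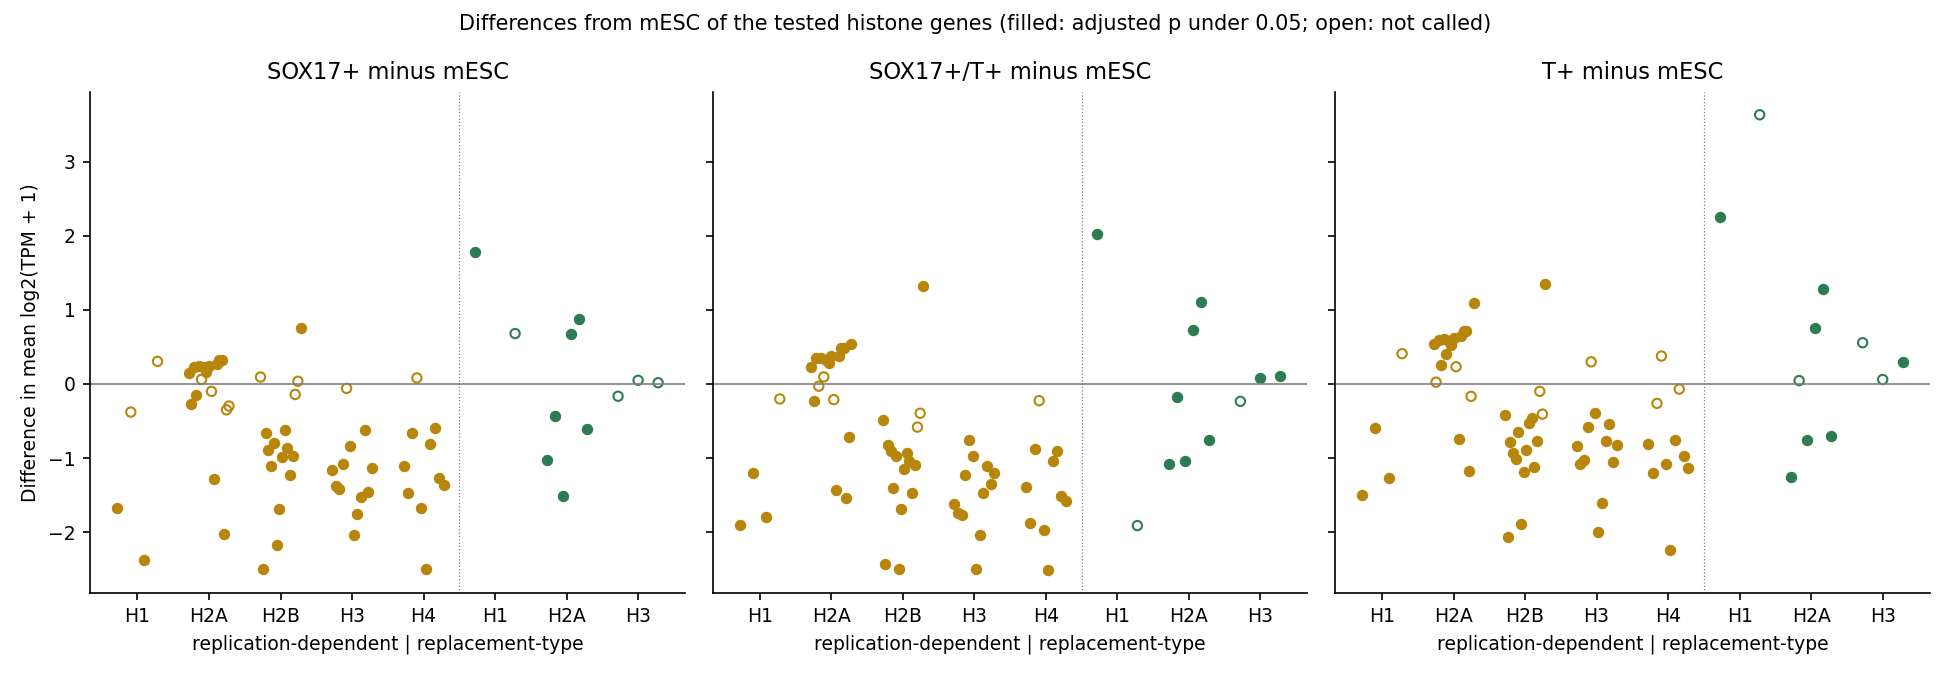
Difference in mean log2(TPM + 1) of each tested histone gene between a sorted group and mESC (y axis), by family, with replication-dependent families left of the dotted line and replacement-type families right of it. Filled points were called at an adjusted p under 0.05: outside H2A nearly all replication-dependent points lie below 0, and Hist3h2ba is the filled point above 0 among H2B.

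The H2A family split into 2 parts by level. Averaged over all libraries, 11 genes were at 20 TPM or more (Hist1h2ab, ad, ae, af, ag, ah, ai, aj, an, ao and ap), with single values between 23.7 and 527 TPM, and the other 9 did not pass 13.7 TPM in any library. These 11 genes made up 80.2% to 95.0% of the summed TPM of all replication-dependent genes. The highest, Hist1h2ap (chr13:21833026-21833507, minus strand), was at 375, 405 and 375 TPM in SOX17+, 432, 427 and 427 TPM in SOX17+/T+, 527, 495 and 485 TPM in T+, and 307, 313 and 299 TPM in mESC. No group overlapped another, and the rises over mESC were 0.33, 0.48 and 0.71 (SE 0.04 each, adjusted p = 1.66e-06, 2.87e-08 and 5e-10). Hist1h2ao (chr13:21810465-21810944, plus strand) was at 327, 352 and 325 TPM in SOX17+, 376, 372 and 373 TPM in SOX17+/T+, 462, 432 and 424 TPM in T+, and 270.2, 271 and 262 TPM in mESC. Its rises were 0.32, 0.48 and 0.71. Over the whole family, 9 of 17 tested genes rose and 4 fell in SOX17+, 10 rose and 4 fell in SOX17+/T+, and 12 rose and 2 fell in T+. Among all genes tested, 34.5% to 35.4% were called higher and 49.5% to 50.3% lower against mESC. The rise of Hist1h2ab in SOX17+ was lost with no filter and without SOX17+ 2, SOX17+ 3 or any mESC library (limma, adjusted p of 0.0522 to 0.18). That of Hist1h2ai in SOX17+ was lost without SOX17+ 2 (limma, adjusted p = 0.0867). Over all 59 tested replication-dependent genes 13 rose and 36 fell in T+, and 17 rose and 28 fell under quantile normalization.

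Within the summed TPM of the 11 abundant H2A genes, the largest shares changed little between libraries. Hist1h2ap held 24.5% to 26.5% of this sum and Hist1h2ao 21.4% to 23.1%. The lowest shares were higher in mESC. Hist1h2ae held 1.67% to 1.81% in the sorted libraries and 2.21% to 2.38% in mESC. Hist1h2ag held 1.74% to 1.96% and 2.12% to 2.25%. To see how separable the 11 genes are, each transcript was divided into every window of 100 bases, the length of 1 read. A window was counted as shared when the same letters occur in a transcript of another gene on the transcript strand. The shared part was 92.2% for Hist1h2ap and 92.7% for Hist1h2ao, and ranged from 30.7% (Hist1h2ae) to 92.7% over the 11 genes. It was at least 50% in 10 of them. The sources used here do not say how reads that match several genes were assigned, so the level of each of these genes alone is uncertain, and their rises are not 11 independent measurements. Hist1h2aj, which behaved like the others (120 ± 9.65, 131 ± 1.19, 156 ± 8.82 and 101 ± 3.21 TPM in SOX17+, SOX17+/T+, T+ and mESC, SD, n = 3), is annotated as an unprocessed pseudogene. Of the 9 less abundant H2A genes, 2 had at least 50% shared windows. So did 14 of the 49 replication-dependent genes outside H2A, and none of these 14 passed 13.9 TPM in any library. Hist1h3h, with 92.0% shared windows, was at 2.72, 2.05, 3.21 and 11.4 TPM on average in SOX17+, SOX17+/T+, T+ and mESC. The replacement-type H3f3c, with 56.7% shared windows, was at 154 TPM on average over all libraries. The part of shared sequence in these levels was not tested.

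**Figure D3:**
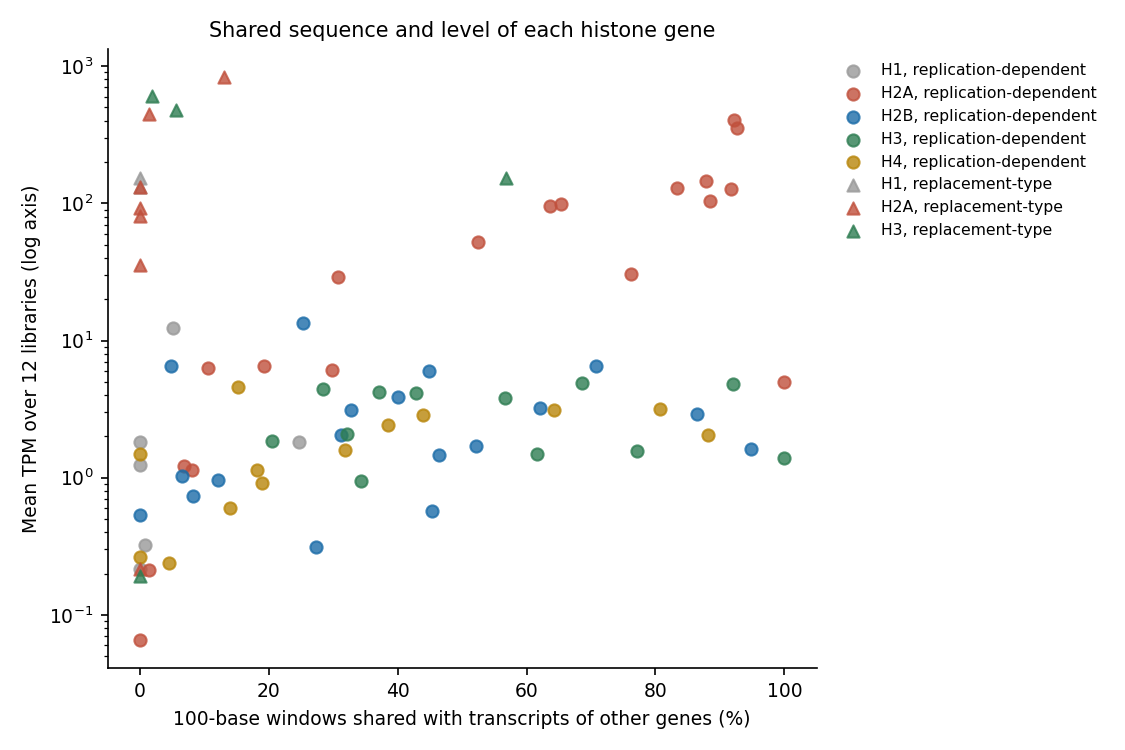
Percentage of 100-base windows of a gene's transcripts that also occur in transcripts of other genes (x axis) against the mean TPM over 12 libraries (y axis, log scale), for the 81 histone genes with a value above 0. Of the 11 abundant H2A genes, 10 lie at 50% or more. Replication-dependent H2B, H3 and H4 genes with at least 50% shared windows stay below 13.9 TPM. H3f3c, of the replacement-type H3 family, lies at 56.7% and 154 TPM.

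Among the less abundant H2A genes the directions differed, with the rise of Hist3h2a given above and falls of others. Hist2h2aa2 (chr3:96239749-96240276, minus strand), all of whose 100-base windows also occur in other histone genes, was at 1.02, 2.30 and 2.52 TPM in SOX17+, 2.99, 2.83 and 3.17 TPM in SOX17+/T+, 3.98, 3.24 and 5.54 TPM in T+, and 10.7, 10.5 and 10.6 TPM in mESC. It fell by 2.02, 1.54 and 1.17, while Hist2h2aa1, with 88.3% shared windows, was listed at 0 in all 12 libraries, so the division of reads between such genes is uncertain. Hist1h2al, annotated as a processed pseudogene at a distance from the cluster, fell as well (-1.29, -1.42 and -0.75). At the bottom of the abundant part, Hist1h2ae was called lower in SOX17+ (-0.15, SE 0.06, adjusted p = 0.0259) and higher in T+ (0.26, adjusted p = 0.00106). The call in SOX17+ was lost without SOX17+ 1, mESC 2 or mESC 3 (adjusted p = 0.127, 0.0967 and 0.067), without the mitochondrially encoded genes (0.0603) and with median-of-ratios scaling (0.931). The difference was 0.05 (adjusted p = 0.47) under quantile normalization.

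Most H2A and H2B genes of the cluster are arranged in pairs that face away from each other across a short shared promoter. Of 14 such pairs with less than 1000 bases between starts, 13 joined an H2A to an H2B gene, with 176 to 306 bases between their annotated starts, and both genes were tested in 11. In 6 of the 11 pairs the H2A gene rose and the H2B gene fell in SOX17+, in 6 in SOX17+/T+ and in 8 in T+. Of all genes tested, 34.5% to 35.4% were called higher and 49.5% to 50.3% lower in these comparisons. The rising H2A genes all belong to the 11 abundant ones with shared sequence, so these pairs are not independent cases. Hist1h2ah and Hist1h2bk, 302 bases apart, differed by 0.33 and -1.68 in SOX17+/T+ and by 0.58 and -1.18 in T+. Hist1h2ag was not called in SOX17+/T+ (0.10) while Hist1h2bj, 270 bases away, fell by 2.50. In no pair did both genes rise (0 of 11 in each comparison, also 0 with both called lower in T+). The 250 bases before the RefSeq start of each H2B gene of these 2 pairs (RefSeq annotation of GRCm38.p6), which cover most of the space between the 2 genes, are shown on the plus strand, chr13:22035571-22035820 for Hist1h2bk and chr13:22042948-22043197 for Hist1h2bj. Capitals mark matches, on either strand, to the CCAAT box, to the TATA box (searched as TATAAA) and to the octamer known from H2B promoters (searched as ATTTGCAT). No matches overlap:
Hist1h2bk: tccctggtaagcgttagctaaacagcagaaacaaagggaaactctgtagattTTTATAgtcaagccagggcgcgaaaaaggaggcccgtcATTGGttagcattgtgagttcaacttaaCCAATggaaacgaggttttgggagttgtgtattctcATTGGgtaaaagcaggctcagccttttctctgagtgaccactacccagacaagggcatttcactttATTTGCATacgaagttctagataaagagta
Hist1h2bj: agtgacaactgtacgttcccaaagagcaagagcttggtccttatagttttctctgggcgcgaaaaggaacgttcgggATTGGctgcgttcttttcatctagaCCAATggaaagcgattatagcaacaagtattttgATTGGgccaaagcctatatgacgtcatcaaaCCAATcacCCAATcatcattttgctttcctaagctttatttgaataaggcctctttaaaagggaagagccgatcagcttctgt

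The Hist1h2bk promoter held 3 CCAAT, 1 TATAAA and 1 ATTTGCAT, and the Hist1h2bj promoter held 5 CCAAT and neither of the others. Among the 77 members with a RefSeq promoter of 300 bases, a gene was counted if any of its promoters held the motif. CCAAT occurred in 85.5% of replication-dependent and 66.7% of replacement-type genes, against 37.4% of all 32851 promoters, each counted alone. It was found for every H1, H2A, H2B and H3 cluster gene and for 25% of those of H4. TATAAA occurred in 56.5%, 6.67% and 13.6%, in the same order, and ATTTGCAT in 22.6%, 6.67% and 1.74%. ATTTGCAT was found for 7 of 18 H2A and 7 of 16 H2B genes. A match describes the letters in the window, not a bound site.

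Most genes that process replication-dependent mRNA fell and fewer rose, and most S phase genes fell. Of all genes tested, 49.5% to 50.3% were called lower and 34.5% to 35.4% higher in these comparisons. The medians of all genes were -0.18, -0.19 and -0.17. Of 18 tested genes of histone mRNA end processing and decay, 12 fell and 4 rose in SOX17+, 11 fell and 4 rose in SOX17+/T+, and 11 fell and 3 rose in T+, with medians of -0.59, -0.60 and -0.50. Slbp, the stem-loop binding protein, was at 81.2, 72.6 and 76.1 TPM on average in SOX17+, SOX17+/T+ and T+, and at 125 TPM in mESC. The largest fall of the list was that of Zfp473, a zinc finger protein of the histone processing complex (-1.58, -1.68 and -1.85, SE 0.07 each). Of 24 S phase genes, 21, 22 and 20 fell and 1 rose in each group, led by the cyclin gene Ccne1 (-2.89, -3.06 and -3.03, SE 0.05 each). The summed TPM of the S phase list was 1863 to 1982 in SOX17+, 1817 to 1922 in SOX17+/T+, 2031 to 2124 in T+ and 3592 to 3724 in mESC. Of 25 genes of histone chaperones and exchange complexes, 18, 17 and 16 fell and 5, 5 and 6 rose, with medians of -0.49, -0.43 and -0.25. The part of these genes in the values of the histone genes was not tested.

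The replacement-type genes followed no common direction. Summed over all 18, they stood at 2796 ± 215, 2804 ± 88.5 and 3462 ± 56.4 TPM in SOX17+, SOX17+/T+ and T+, and at 3487 ± 222 TPM in mESC (SD, n = 3). Of 11 tested, 3 rose and 4 fell in SOX17+, 5 rose and 4 fell in SOX17+/T+, and 4 rose and 3 fell in T+, against the shares of all genes given above. The median difference was 0.02, -0.18 and 0.29. This split depended on scaling: with median-of-ratios scaling, which moved the median of all genes by 0.11 to 0.13, 5 rose and 4 fell in SOX17+ and 7 rose and 3 fell in T+. With quantile normalization, which moved it by 0.23 to 0.25, the numbers in SOX17+, SOX17+/T+ and T+ were 5, 6 and 7 higher and 4, 3 and 3 lower.

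H2afz, H2afx and H2afj fell in each sorted group, and H2afv in SOX17+ and, in a call that turns round under quantile normalization, in SOX17+/T+, but not in T+. H2afz (chr3:137864487-137866922, plus strand) encodes H2A.Z, a variant placed at promoters and enhancers, and was the most abundant histone gene of all. It was at 750.0, 766 and 771 TPM in SOX17+, 678, 669.6 and 714 TPM in SOX17+/T+, 716, 688 and 721 TPM in T+, and 1153, 1171 and 1147 TPM in mESC. The sorted libraries lay close together and well below mESC (-0.60, -0.75 and -0.71, SE 0.03 each, adjusted p = 1.3e-10, 1.4e-11 and 2.53e-11). H2afv, the gene of the second H2A.Z protein, was at 74.8 ± 1.43 TPM in SOX17+, 89.0 ± 0.635 TPM in SOX17+/T+, 104 ± 6.25 TPM in T+ and 101 ± 1.18 TPM in mESC (SD, n = 3). It fell in SOX17+ (-0.43, adjusted p = 2.59e-07). Its fall in SOX17+/T+ (-0.18, adjusted p = 0.000883) became -0.02 (adjusted p = 0.629) with median-of-ratios scaling and a rise of 0.15 (adjusted p = 0.00374) with quantile normalization. H2afj was at 27.9, 30.1 and 29.3 TPM in SOX17+, 26.3, 29.1 and 29.1 TPM in SOX17+/T+, 25.0, 26.3 and 23.4 TPM in T+, and 59.1, 62.5 and 60.1 TPM in mESC, a fall of 1.03, 1.08 and 1.25 (SE 0.06 each).

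H2afx (chr9:44334694-44336077, plus strand) encodes H2A.X, which is phosphorylated at DNA breaks. It was at 247, 281 and 246 TPM in SOX17+, 339.7, 369.6 and 369 TPM in SOX17+/T+, 442, 445 and 427 TPM in T+, and 756, 741 and 718 TPM in mESC. The 4 groups did not overlap and stood in that order. The differences from mESC were -1.52, -1.04 and -0.75 (SE 0.05 each, adjusted p = 4.96e-12, 2.4e-10 and 6.8e-09), and SOX17+ against T+ gave -0.76 (adjusted p = 3.01e-08). H2afx is the only replacement-type gene in which a stem-loop was found.

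The macroH2A genes and H1f0 rose. H2afy and H2afy2 encode macroH2A proteins, large H2A variants known from inactive chromatin. H2afy was at 142 ± 8.04, 147 ± 11.7 and 149.9 ± 5.29 TPM in SOX17+, SOX17+/T+ and T+, and at 88.4 ± 2.97 TPM in mESC (SD, n = 3), a rise of 0.67, 0.72 and 0.76 (SE 0.06 each). H2afy2 was at 85.8, 75.0 and 78.8 TPM in SOX17+, 94.0, 88.1 and 97.3 TPM in SOX17+/T+, 105, 101 and 109 TPM in T+, and 44.2, 43.2 and 41.1 TPM in mESC, a rise of 0.88, 1.10 and 1.28 (SE 0.05 each). H1f0 (chr15:79028450-79030504, plus strand) encodes the linker histone known to build up in differentiated and slowly dividing cells. It was at 161, 149 and 169 TPM in SOX17+, 189, 174 and 203 TPM in SOX17+/T+, 220.4, 217 and 227 TPM in T+, and 45.1, 47.6 and 44.3 TPM in mESC. No group overlapped another, and it rose by 1.78, 2.02 and 2.25 (SE 0.06 each, adjusted p = 3.65e-12, 1.15e-12 and 4e-13), the largest rise of any member called. The cluster gene Hist1h1c fell in the same libraries, as given above.

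**Figure D4:**
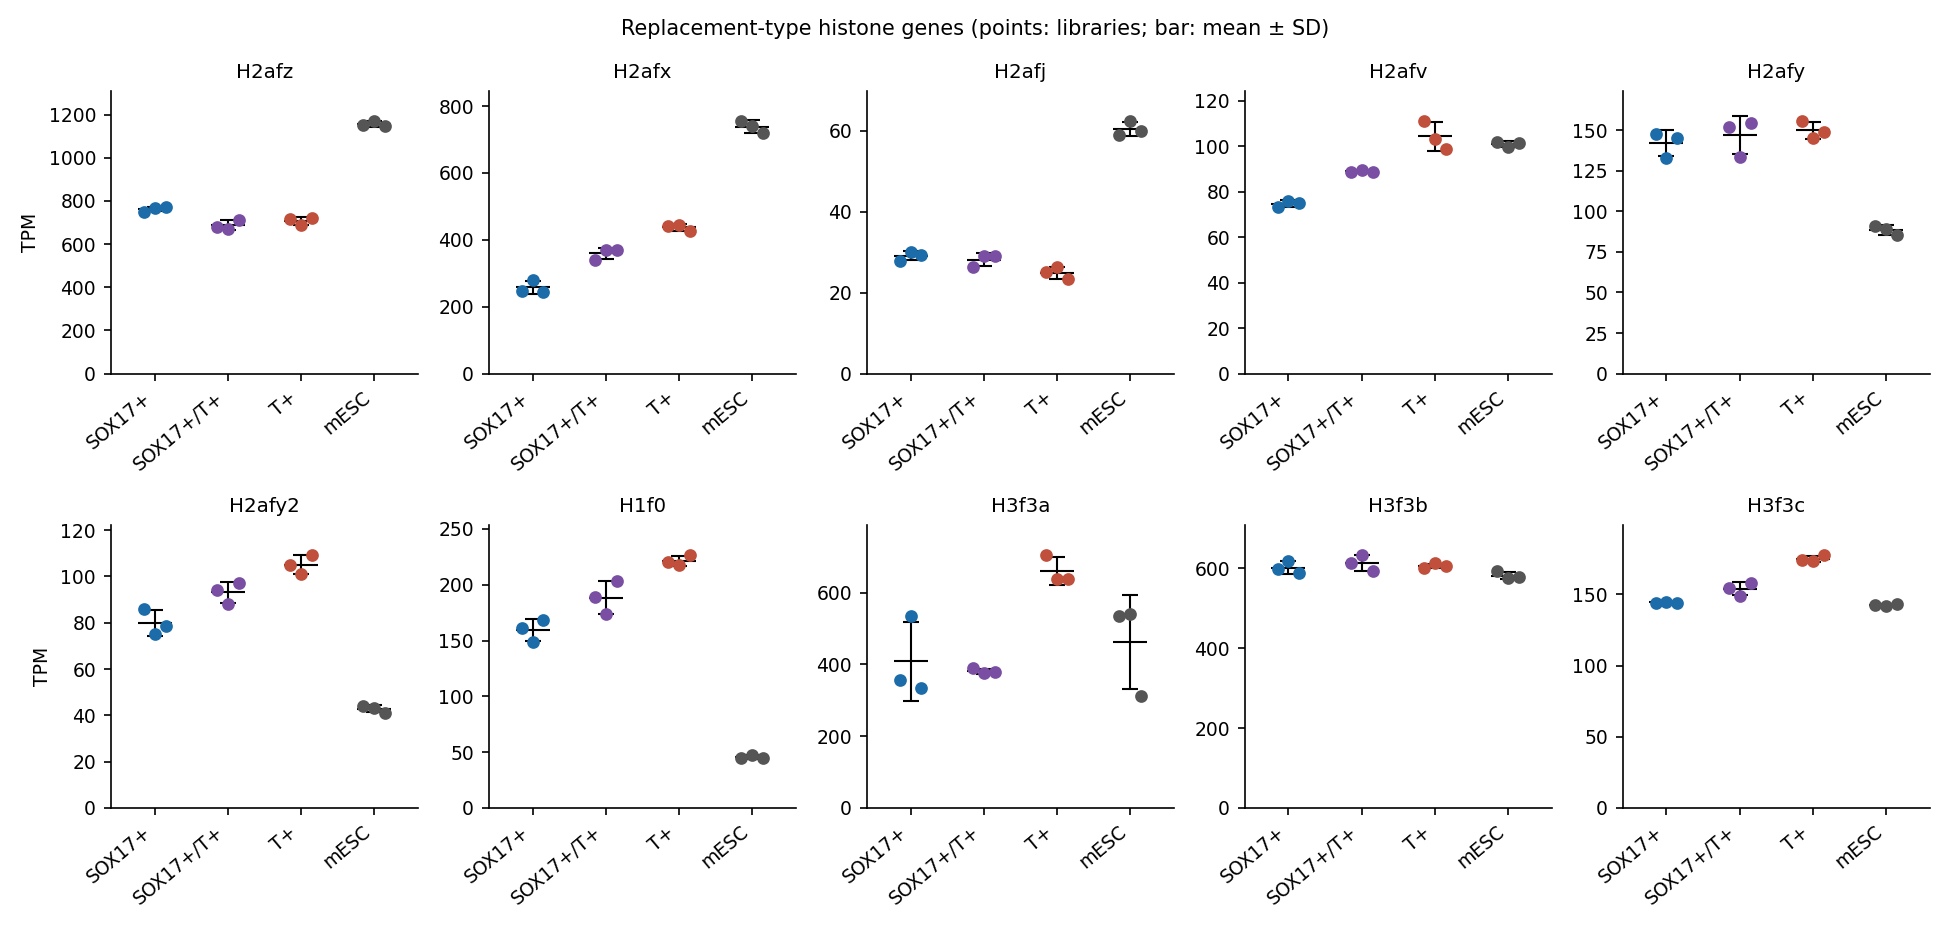
TPM of 10 replacement-type genes (y axes, each starting at 0) in the 12 libraries (points), with the mean and SD of each group of 3 (bars). H2afz, H2afx and H2afj were lower in the sorted groups than in mESC and H2afy, H2afy2 and H1f0 higher, while H3f3a shows 2 levels within SOX17+ and within mESC.

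The genes of the H3.3 variant differed in how steady they were. H3f3b (chr11:116021912-116027962, minus strand) was at 602 ± 15.9, 614 ± 19.6 and 607 ± 5.75 TPM in SOX17+, SOX17+/T+ and T+, and at 582 ± 9.62 TPM in mESC (SD, n = 3). Its differences from mESC were 0.05, 0.08 and 0.06 (SE 0.03 each, adjusted p = 0.112, 0.0194 and 0.0582), and the call in SOX17+/T+ was lost without SOX17+/T+ 2, mESC 2 or mESC 3. H3f3a (chr1:180800832-180813943, minus strand), which encodes the same protein, was at 355, 536 and 336 TPM in SOX17+, 389, 377 and 378 TPM in SOX17+/T+, 705, 639 and 639 TPM in T+, and 536, 539.5 and 312 TPM in mESC. One SOX17+ library stood with 2 mESC libraries and the third mESC library stood with the lower SOX17+ ones, so SOX17+ and mESC overlapped. H3f3a was not called against mESC in any group (adjusted p = 0.52, 0.367 and 0.0507). It was lower in SOX17+ than in T+ (-0.72, SE 0.23, adjusted p = 0.0275) and lower in SOX17+/T+ than in T+ (-0.79, adjusted p = 0.0341), with no overlap. Both calls were lost when a single library was left out: the first without SOX17+ 1 or 3 or any T+ library (adjusted p of 0.0575 to 0.0908), the second without any SOX17+/T+ or T+ library (0.0736 to 0.0976). H3f3c, annotated as a processed pseudogene with 56.7% of its windows shared, was steady within groups at 144 ± 0.529, 154 ± 4.52, 175 ± 2.10 and 143 ± 0.771 TPM in SOX17+, SOX17+/T+, T+ and mESC (SD, n = 3). The pseudogene H3f3a-ps2, outside the 87 genes, stood at 53.2 to 55.9, 55.6 to 61.5, 68.4 to 70.7 and 48.5 to 53.2 TPM in those groups and did not show the 2 levels of H3f3a.

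H1fx was the only member listed at 0 in 1 or 2 libraries of a group and at 5 TPM or more in another. It encodes a linker histone (chr6:87980421-87981637, minus strand) and was at 202, 201 and 0 TPM in SOX17+, 0, 187 and 0 TPM in SOX17+/T+, 270.3, 274 and 255 TPM in T+, and 101, 97.5 and 0 TPM in mESC. The 4 zeros were thus spread over 3 groups. Such values are not peculiar to histones: 11, 13, 14 and 10 of all 54446 genes were listed this way within SOX17+, SOX17+/T+, T+ and mESC. Only a gene that reaches 5 TPM in a group can be listed there, and 16097 genes reached even 1 TPM in 3 libraries. With zeros kept, no comparison of H1fx was called (differences from mESC of 0.68, -1.91 and 3.63, SE 2.95 each, adjusted p = 0.835, 0.56 and 0.277). With zeros treated as missing, they were 1.02, 0.91 and 1.42 (adjusted p = 1.58e-08, 1.77e-07 and 7.24e-10), called higher in SOX17+ and T+, with 2 libraries left in SOX17+ and in mESC. In SOX17+/T+ the sign is reversed, but 1 library is left there and its p assumes that this library varies like those of the other groups, so no rise is read from it.

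The gene Gm5577 overlaps H1fx on the opposite strand by 755 bases. It was at 1.49, 3.02 and 41.9 TPM in SOX17+, 50.4, 45.7 and 51.4 TPM in SOX17+/T+, 2.10, 4.20 and 2.76 TPM in T+, and 1.52, 1.71 and 19.6 TPM in mESC. It was high in each of the 4 libraries where H1fx was listed at 0. It was also high in SOX17+/T+ 2, where H1fx was at 187 TPM. Gm47286, which overlaps H1fx by 24 bases on its own strand, was at 0.0194, 0.105 and 3.72 TPM in SOX17+, 4.57, 1.61 and 5.48 TPM in SOX17+/T+, 0.00211, 0.148 and 0.0497 TPM in T+, and 0.377, 0.468 and 2.10 TPM in mESC. Whether the zeros come from assigning reads to these genes was not tested. In all, 33 members overlap an annotated gene on the opposite strand and 8 overlap one on the same strand. The libraries were stranded per the labels, but the sources used here do not say whether the quantification used strand.

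**Figure D5:**
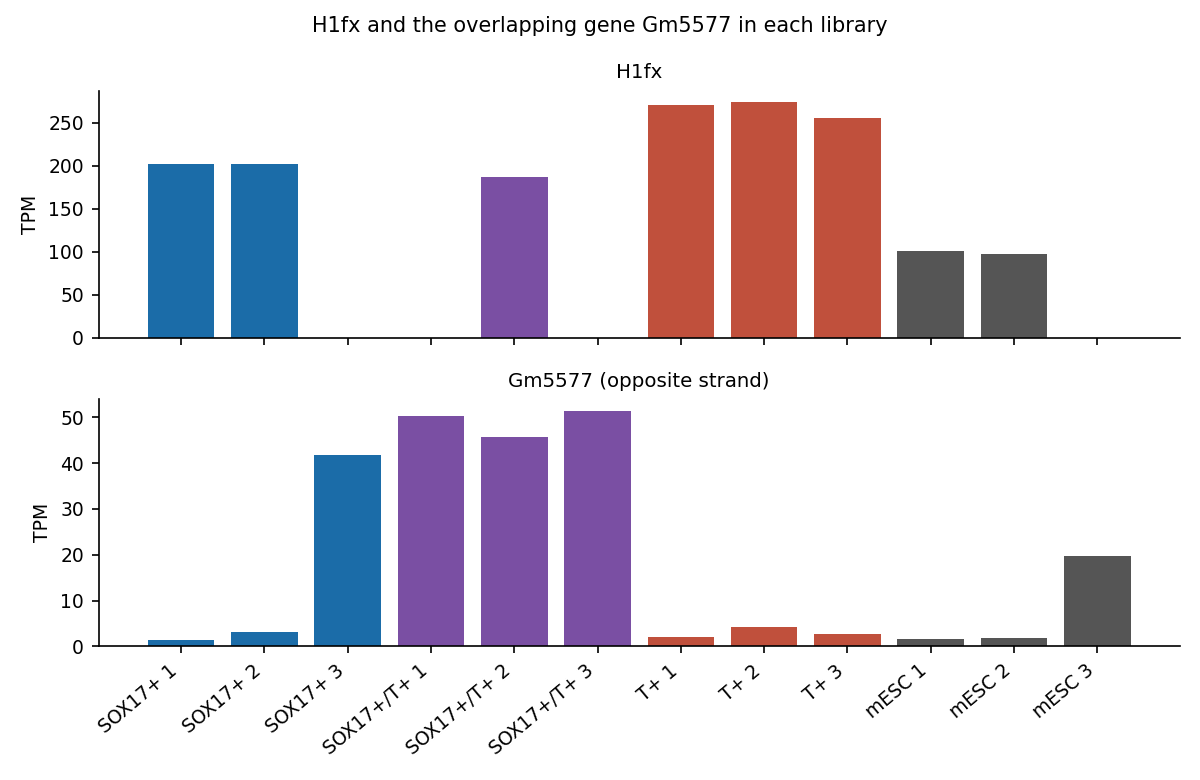
TPM of H1fx (top) and of the overlapping opposite-strand gene Gm5577 (bottom) in each of the 12 libraries, 3 per group (bars, axes starting at 0). H1fx is listed at 0 in SOX17+ 3, SOX17+/T+ 1, SOX17+/T+ 3 and mESC 3, and Gm5577 is at 19.6 TPM or more in those 4 libraries and in SOX17+/T+ 2.

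Among the sorted groups, most replication-dependent H2A genes were lower in SOX17+ and in SOX17+/T+ than in T+. In SOX17+ against T+, where 54.5% of all genes were called (25.4% higher, 29.0% lower), 14 of 17 H2A genes fell, and of the other 42 replication-dependent genes 12 fell and 1 rose. The riser was Hist1h2bb, at 3.08, 4.19 and 4.79 TPM in SOX17+ and 2.71, 2.01 and 2.76 TPM in T+ (0.52, SE 0.15, adjusted p = 0.0121). This call was lost without SOX17+ 3 or T+ 2. The number of replication-dependent genes called higher was 2 with the replicate number as a block, and also 2 without SOX17+ 1 or T+ 3. In SOX17+/T+ against T+, where 28.4% were called (12.6% higher, 15.8% lower), 13 of 17 H2A genes and 17 of the other 42 fell. None rose in limma at an adjusted or an unadjusted p under 0.05 (0 of 59). Hist1h4h showed the clearest fall of the H4 genes, at 0.696, 0.928 and 0.527 TPM in SOX17+/T+ and 2.39, 1.65 and 2.52 TPM in T+ (-0.89, SE 0.14, adjusted p = 0.000299). The H2A medians were -0.38 and -0.26 in these comparisons and those of the other cluster genes -0.27 and -0.50, against -0.03 and -0.03 for all genes.

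Few replication-dependent genes were called between the groups that carry the SOX17 reporter signal. In SOX17+ against SOX17+/T+, 36.6% of all genes were called (19.8% higher, 16.8% lower). Of 59 replication-dependent genes, 3 rose and 5 fell, below the share of all genes in this fit of all 12 libraries. Hist1h1b, a linker histone gene of the cluster, was at 1.04, 1.55 and 1.55 TPM in SOX17+ and 0.345, 0.495 and 0.207 TPM in SOX17+/T+, without overlap (0.82, SE 0.20, adjusted p = 0.00636). Hist3h2a and Hist3h2ba fell by 0.84 and 0.56 (adjusted p = 0.00745 and 0.00784). These numbers were unstable: 13 genes rose without SOX17+ 1 and 6 without T+ 2, and 10 fell without SOX17+ 2 or under quantile normalization. Without SOX17+ 1, 2612 of all 15974 genes tested were called higher, so the place below the share of all genes was unstable too. SOX17+ 1 held the lowest value of its group in the summed TPM of each of the H1, H2A, H2B, H3 and H4 clusters.

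Replacement-type genes were called between the sorted groups as well, but only 11 were tested. In SOX17+ against T+, 6 of 11 fell and 2 rose, beside 29.0% lower and 25.4% higher among all genes. In SOX17+/T+ against T+, 6 fell and 1 rose, beside 15.8% and 12.6%. In SOX17+ against SOX17+/T+, 5 fell and 1 rose, beside 16.8% and 19.8%. Under quantile normalization 8 fell and 1 rose in SOX17+ against T+. H2afv, H2afx, H2afy2, H1f0 and H3f3c were among the falls in each. Of these calls, that of H2afy2 in SOX17+/T+ against T+ was lost without SOX17+/T+ 1 or 2 or T+ 1 or 3 and with no filter, and that of H3f3c in SOX17+ against SOX17+/T+ without SOX17+ 1 or 3 or SOX17+/T+ 1 or 3. H2afj went the other way and was higher in SOX17+ (0.22, SE 0.06, adjusted p = 0.00486) and in SOX17+/T+ (0.17, adjusted p = 0.0354) than in T+. The second call, the only rise in that comparison, was lost without SOX17+/T+ 2, SOX17+/T+ 3, T+ 1 or T+ 3 and with no filter on low values. H2afz was higher in SOX17+ than in T+ (0.11, SE 0.03, adjusted p = 0.00488), which became 0.04 (adjusted p = 0.268) under quantile normalization.

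Of the 17 members that were not tested, 6 were listed at 0 in every library: Hist2h2aa1, H1fnt, H1foo, H2afb1, H2afb2 and H2afb3. H1fnt and H1foo encode the linker histones of spermatids and oocytes, and the H2afb genes a short H2A of the testis. The other untested replication-dependent genes did not pass 1.25 TPM in any library and the other untested replacement-type genes did not pass 0.438 TPM.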

How the data were processed

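Poly(A) RNA of 12 libraries was measured. Per the submitters' processing notes, StringTie, STAR and cutadapt were used (no version given), with GRCm38 and mm10 as builds. The deposited values are TPM in a single table from the authors, sum to 1000000 in each library and keep no depth, so no counting interval is given. Empty cells (282) were set to 0 and rows were summed per gene identifier (11 genes were split, none a histone gene). Coordinates are those of the table, counted from 1. Annotation types and transcripts are those of GENCODE M21, and promoters those of RefSeq.

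The 16097 genes that reached 1 TPM in 3 or more libraries were fitted as log2(TPM + 1) with 1 mean per group over all 12 libraries in limma 3.58.1 (R 4.3.3, eBayes with trend and robust, 8 residual degrees of freedom). The 6 pairwise comparisons were tested on 2 sides, adjusted by Benjamini-Hochberg over all genes, and called at an adjusted p under 0.05. The fit was tested on simulated data. No p was computed for sums or class counts.

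The members and gene lists were chosen with earlier results of these data known. Named are the 12 most abundant replication-dependent genes, replacement-type genes with a group mean of at least 1 TPM, members listed at 0 as described, up to 3 called rises and 3 falls per comparison and class, and up to 4 called genes of a further list. Hist1h2al, Hist1h2be, Hist1h2bk, Hist2h2aa1, the other genes listed at 0 throughout, Hist1h3h, H3f3aos, H2afy3, Slbp, Cxcr4, Eomes, Gm5577, Gm47286 and H3f3a-ps2 were named after their values were seen. Alternatives were another pseudocount (0.1 TPM), no filter, 3 other scalings, zeros as missing, the replicate number as a block and leaving out each library. After group means were removed, same-numbered SOX17+/T+ and T+ libraries correlated across genes (r = 0.204, 0.149 and 0.242), so the number may pair them. For the other group pairs not every r passed 0.1. The calls reported come from the fit without a block, which leaves such a pairing out. In SOX17+/T+ against T+, that fit called 4578 of all genes, and the fit with the block called 5202.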

Additional observations from a re-analysis of the deposited data

Results flagged for a closer look

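Hist1h2ae was lower in SOX17+ than in mESC (-0.15, adjusted p = 0.0259) and higher in T+ than in mESC (0.26, adjusted p = 0.00106), and SOX17+ differed from T+ by -0.41 (limma, adjusted p = 5.3e-05), so the direction against mESC differed between these sorted groups. All 3 T+ libraries lay above all 3 SOX17+ libraries, while SOX17+ and mESC overlapped (23.7, 27.4 and 26.1 TPM in SOX17+, and 27.2, 29.8 and 29.0 TPM in mESC). The call in SOX17+ did not hold under quantile normalization, given below.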

How the results depend on the processing

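Of 155 calls on 35 named genes, 128 held with the same sign under all 19 alternatives and 27 did not under at least 1. With median-of-ratios scaling, the replacement-type genes called higher numbered 5 in SOX17+ (3 as reported) and 7 in T+ (4) against mESC, and with quantile normalization also 5 and 7. Quantile normalization gave 1 replacement-type gene higher in SOX17+ against T+ (2) and 10 replication-dependent genes lower in SOX17+ against SOX17+/T+ (5), and made 52.4%, 53.2% and 53.4% of all calls against mESC higher, against 41.5%, 40.9% and 41.0%. Without a filter, 0 replacement-type genes were higher in SOX17+/T+ against T+ in limma (1). Reversed differences from mESC were those of Hist1h2ae in SOX17+ (0.052, quantile), H2afv in SOX17+/T+ (0.151, quantile) and H1fx in SOX17+/T+ (0.911, zeros as missing). The cause of these changes was not tested.

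The log2 ratio of the summed TPM of the replication-dependent genes to mESC was 0.0472, 0.16 and 0.436 in SOX17+, SOX17+/T+ and T+. It was 0.202, 0.319 and 0.566 with median-of-ratios scaling and -1.63, -1.9 and -1.18 without H2A, an alternative chosen after seeing the data. Without the highest member it was 0.0666 in SOX17+/T+ and 0.359 in T+, and without mitochondrially encoded genes 0.196 in SOX17+/T+. Without H2A, SOX17+/T+ against T+ gave -0.719 (-0.276) and SOX17+ against SOX17+/T+ 0.269 (-0.113). The replacement-type sum gave -0.319, -0.315 and -0.0107 against mESC, -0.164, -0.154 and 0.12 with median-of-ratios scaling, and -0.139 in SOX17+/T+ and 0.241 in T+ without H2afz. Without H2afz it was also -0.437 in SOX17+ against T+ (-0.308) and -0.379 in SOX17+/T+ against T+ (-0.304), the second being -0.221 without H1fx, also chosen after seeing the data.

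Leaving out single libraries gave 0 to 2 replication-dependent genes higher in SOX17+ against T+ (0 without SOX17+ 3 or T+ 2, 2 without SOX17+ 1 or T+ 3). It gave 0 to 1 replacement-type genes higher in SOX17+/T+ against T+. In SOX17+ against SOX17+/T+ it gave 2 to 13 replication-dependent genes higher and 4 to 10 lower. With the replicate number as a block, 2 replication-dependent genes were higher in SOX17+ against T+ (1). All named calls held under the block. Depth is unknown, so how far it limits genes near 1 TPM cannot be given.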
